A study of Rattus norvegicus with 56 samples.

Results

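Oligodendrocyte progenitor genes were followed in primary cultures of rat hippocampal neurons that had received repetitive transcranial magnetic stimulation (rTMS). The set holds 7 genes, Olig1, Olig2, Pdgfra, Cspg4, Sox10, Nkx2-2 and Gpr17, among 13888 genes with a symbol that were tested. Members were found through the RefSeq accession of each probe on the Agilent array, and every member had 1 probe. All of these probes were well above background on each of the 55 arrays used, so every member passed the filter on dim probes. The cultures came from hippocampi of Sprague-Dawley embryos at stage E18 and were kept in serum-free Neurobasal medium with B27, which favours neurons. Plates lay on an inverted coil and received 1 Hz stimulation or intermittent theta burst stimulation (iTBS). For sham, the coil stood away from the plate. RNA was taken 0, 2, 8, 24 or 48 h after the end of stimulation, and untreated cultures (CTR) were taken at 0 h only. The arrays numbered 4, 4, 3, 3 and 3 for sham, 3, 2, 4, 3 and 4 for 1 Hz, and 4, 4, 3, 3 and 4 for iTBS at these times, and 4 for untreated cultures. A further array, 1 Hz at 2 h replicate 2, had failed the scanner's own grid check and was left out.

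The sample descriptions also carry a running number or the letter D, and the arrays were ordered by these into 4 culture series. Series A holds the first range of numbers (11 arrays), B the second (12 arrays), C the third (17 arrays) and D the lettered samples (15 arrays). What a number or the letter stands for is not stated, and nothing says whether arrays of 1 group came from separate embryos or dishes, so p-values measure the spread between these samples, which may be technical. Series A lay on slides 1 and 2, B on slides 3 and 4 and C on slides 5 to 7, while D had 2 or 3 arrays on each of the 7 slides. Between 66.1% and 81.8% of spots per array were well above background, no spot was saturated, and pairs of arrays correlated with r from 0.915 to 0.992 across probes. Levels are z-scores of the log2 processed signals of an array, brought back to a log2 scale by a factor of 4.06 (the SD of a typical array, as the median over arrays). On this scale 0 is the mean of the array and a difference of 1 is about a doubling. They compare arrays for the same gene and do not rank one gene against another.

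Oligodendrocyte progenitors arise from neural precursors, divide in response to platelet-derived growth factor and later turn into the cells that wrap axons with myelin. Olig1 and Olig2 are basic helix-loop-helix transcription factors of the lineage, Sox10 is a high-mobility-group factor that drives progenitor and myelin genes, and Nkx2-2 is a homeodomain factor linked to the start of differentiation. Pdgfra encodes the receptor through which progenitors receive platelet-derived growth factor, Cspg4 encodes the proteoglycan NG2 on their surface, and Gpr17 is a receptor of the stage between progenitor and myelinating cell. Pdgfra is also known in fibroblasts and Cspg4 in mural cells of vessels.

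Promoter sequences from RefSeq (build GRCr8, 250 bases before to 50 after the start of the gene) were at hand for 5 of the 7 members. Those of Olig2 and Pdgfra are shown because every series D array lay below every other array for both genes, a transcription factor and a receptor whose levels moved together. Capitals mark matches, on either strand, to the CCAAT box (CCAAT), the GC box (GGGCGG) and the TATA box (TATAAA), short elements of many promoters. Olig2 lies at chr11:43961335-43961634 (+ strand) and Pdgfra at chr14:33408467-33408766 (- strand).
Olig2: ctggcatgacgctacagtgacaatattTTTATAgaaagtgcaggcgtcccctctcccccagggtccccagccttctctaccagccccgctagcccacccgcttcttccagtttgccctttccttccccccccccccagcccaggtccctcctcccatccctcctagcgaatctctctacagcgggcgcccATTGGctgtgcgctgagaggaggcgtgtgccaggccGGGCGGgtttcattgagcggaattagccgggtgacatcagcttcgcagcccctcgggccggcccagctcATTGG
Pdgfra: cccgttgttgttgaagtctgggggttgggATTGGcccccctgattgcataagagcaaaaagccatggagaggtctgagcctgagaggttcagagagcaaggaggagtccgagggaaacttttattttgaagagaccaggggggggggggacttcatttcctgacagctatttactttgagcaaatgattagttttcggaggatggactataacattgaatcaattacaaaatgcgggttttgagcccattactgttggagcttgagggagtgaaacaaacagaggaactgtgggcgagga
Of all 33469 promoters of this length, 37.5% held CCAAT, 33.1% GGGCGG and 14.2% TATAAA, and among the 5 members 3, 2 and 1 did. The sequences ACAAAG and ACAATG, which SOX factors bind, were in 18.8% and 13.2% of all promoters, and the E-boxes CAGCTG and CATATG, of the kind that OLIG factors bind, in 15.1% and 4.11%. None of these 4 was in the promoter window of any of the 5 members. The windows of Olig2 and Pdgfra were 63.3% and 48% G and C, against a median of 51.7% over all promoters.

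The largest contrast in these genes lay between culture series, and it ran the same way for all 7 members. Cultures of series D had lower levels than the mean of series A, B and C, by about 10-fold for Sox10 and Pdgfra, 5- to 7-fold for Olig2 and Cspg4, 3-fold for Olig1 and under 2-fold for Nkx2-2 and Gpr17. The fit held the 16 groups of arm and time beside the series, so the comparison is within arm and time. In limma, 53% of the 35694 probes tested differed between D and the other series at an adjusted p under 0.05, and 24.2% were lower in D. The share of members that were lower, 7 of 7, stands beside that background. Because each sample is the RNA of a whole culture, fewer cells of a type and less RNA per cell cannot be told apart.

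Among the transcription factors, Olig2 separated series D from the others most cleanly. Its level ran from 7.72 to 8.49 in series A (median 7.96), 8.04 to 8.70 in B (8.30), 7.81 to 8.28 in C (8.07) and 5.04 to 7.01 in D (5.67). The 15 arrays of D thus lay below all 40 others. How many of all probes split the arrays in this way was not counted, here or for the members below. The difference was -2.41 ± 0.09 (log2, SE), a fold of 5.30 (limma adjusted p 1.71e-23). Olig1 ran from 7.72 to 9.995 in A (median 8.86), 8.22 to 10.38 in B (9.10), 8.63 to 9.20 in C (9.01) and 6.07 to 8.07 in D (7.35). Here 13 of the 15 D arrays lay below all others, and the difference was -1.70 ± 0.14 (limma adjusted p 4.62e-13).

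Sox10 was the member whose level differed most among the series. It ran from 2.46 to 5.85 in A (median 3.97), 4.35 to 6.84 in B (4.76), 6.05 to 6.81 in C (6.40) and 0.07 to 4.07 in D (2.01). Every C array was above every A and D array, and 12 of the 15 D arrays were below all others. Relative to A, B and C, series D differed by -3.44 ± 0.27, a fold of 10.8 (limma adjusted p 1.20e-13). Nkx2-2 varied over a narrower range, from -0.07 to 0.60 in A (median 0.05), 0.05 to 0.62 in B (0.29), -0.02 to 0.74 in C (0.57) and -0.79 to 0.28 in D (-0.34). Its median processed signals in A, B, C and D were 111, 121, 147 and 93.9, against 1985, 2484, 8801 and 446 for Sox10. For Nkx2-2 in D, 13 of 15 arrays were below all others and the difference was -0.60 ± 0.07, a fold of 1.51 (limma adjusted p 2.71e-09).

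The surface proteins Pdgfra and Cspg4 showed the same separation as Olig2. Pdgfra ran from 6.87 to 8.38 in A (median 7.51), 8.13 to 9.39 in B (8.41), 7.69 to 8.37 in C (8.21) and 3.87 to 6.28 in D (4.78). All 15 D arrays lay below the 40 others, with a difference of -3.35 ± 0.14, a fold of 10.2 (limma adjusted p 1.09e-21). Cspg4 ran from 5.38 to 7.45 in A (median 6.42), 6.05 to 7.16 in B (6.48), 5.94 to 7.12 in C (6.39) and 2.95 to 5.02 in D (3.88). Again the 15 D arrays were below the rest, with a difference of -2.71 ± 0.14, a fold of 6.53 (limma adjusted p 4.11e-19).

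Gpr17 was the exception to the clean split, with overlapping ranges. Its level ran from -0.28 to 1.16 in A (median 0.45), 0.54 to 1.48 in B (1.16), 0.97 to 1.77 in C (1.30) and 0.04 to 1.23 in D (0.46). The median processed signal of Gpr17, before scaling, was 138 in A, 189 in B, 264 in C and 193 in D. No D array was below all others. The difference of D from the mean of A, B and C was -0.48 ± 0.10, a fold of 1.40 (limma adjusted p 1.15e-04), while D and A taken alone differed by 0.01 (A minus D, SE 0.14, adjusted p 0.963).

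**Figure D1:**
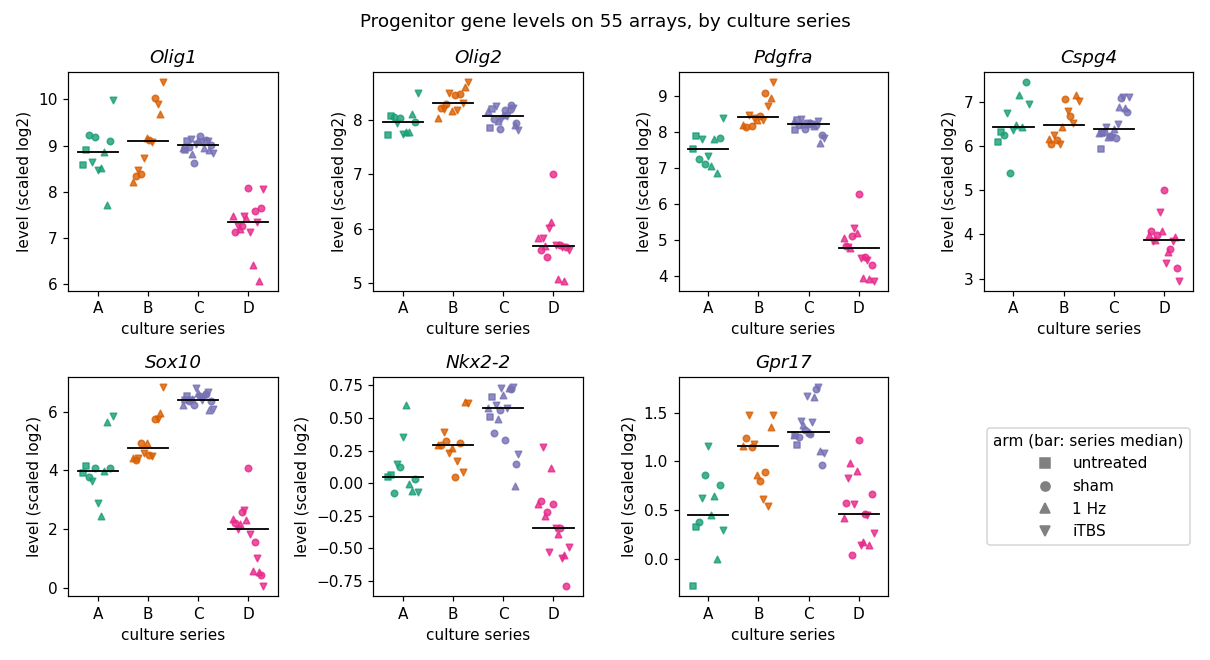
Level of each progenitor gene on the 55 arrays (vertical axis, scaled log2 signal) by culture series (horizontal axis), with the arm as the marker shape and a bar at the series median. For Olig2, Pdgfra and Cspg4 the 15 arrays of series D lie below all 40 others, Sox10 is highest in series C with a median of 6.40, and Gpr17 overlaps between A and D.

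Since each slide carried D beside another series, the difference could also be read within slides. Olig1, Olig2, Pdgfra, Cspg4, Sox10 and Nkx2-2 were lower on average in D on 7 of 7 slides, and Gpr17 on 5 of 7. For Olig1, Olig2, Pdgfra and Cspg4 no D array overlapped the other arrays of its slide on any slide, and the mean differences ran from -2.18 to -1.21, -2.74 to -1.84, -4.03 to -2.57 and -3.57 to -2.09. Sox10 was free of overlap on 6 slides, Nkx2-2 on 5 and Gpr17 on 3. The share of all probes free of overlap within slides was not counted, so these counts stand without a background.

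One array of series D stood apart from its series, sham at 8 h replicate 3. It had the highest level of the 15 D arrays for 6 of the 7 members, for example 7.01 for Olig2 where the other 14 ran from 5.04 to 6.12, 6.28 for Pdgfra against 3.87 to 5.33, and 4.07 for Sox10 against 0.07 to 2.65. Nkx2-2 was the exception, at -0.16 and the fourth highest of D. Without this array the differences between D and the other series were between -0.54 (Gpr17) and -3.60 (Sox10), and all 7 members passed (limma adjusted p at most 1.43e-05).

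Series A, B and C differed less among themselves, and not in the same members. They lay on separate slides, so differences among them are also differences between slides, linked only through the arrays of D. Between C and the mean of A and B, 3 of 7 members differed and all 3 were higher in C. They were Sox10 (+1.85 ± 0.29, a fold of 3.62, limma adjusted p 1.99e-06), Nkx2-2 (+0.32 ± 0.07, 6.75e-04) and Gpr17 (+0.59 ± 0.11, 2.04e-05). Over all probes 40.1% differed and 20.3% were higher in C. Olig1, Olig2, Pdgfra and Cspg4 did not pass, and their differences, from -0.10 to 0.09, had 95% intervals within -0.31 to 0.39. With the slide as a block, Olig2 (+0.48), Pdgfra (+1.25) and Cspg4 (+1.34) also passed as higher in C and Sox10 was at +4.45, and with all 56 arrays Gpr17 did not pass (+0.33, adjusted p 0.349). Between A and B, 2 of 7 members differed and both were lower in A, Pdgfra (-0.95 ± 0.21, adjusted p 6.69e-04) and Gpr17 (-0.55 ± 0.15, 0.00422), against 30.4% of probes that differed and 13.7% that were lower. Leaving out sham at 8 h replicate 3 raised this count to 4. With the slide as a block neither passed. The difference was then -0.62 for Pdgfra (limma adjusted p 0.404) and, with its sign reversed, +0.0497 for Gpr17 (adjusted p 0.965). Over the 4 series jointly, 7 of 7 members differed, as did 75.4% of all probes.

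Taken pair by pair, the order of the series was thus set by different neighbours for each gene. For Olig1, Olig2 and Cspg4, none of the pairs among A, B and C passed and each of them differed from D. For Pdgfra, A differed from B (adjusted p 6.69e-04) and from C (0.0135), while the difference of B from C did not pass (0.39 ± 0.18, adjusted p 0.0982). For Sox10 the order was C, B, A and D, in which the difference of A from B did not pass (-0.89 ± 0.40, adjusted p 0.0869). Nkx2-2 and Gpr17 were highest in C, where B and C differed by 0.23 (adjusted p 0.0450) and 0.32 (0.0488).

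**Figure D2:**
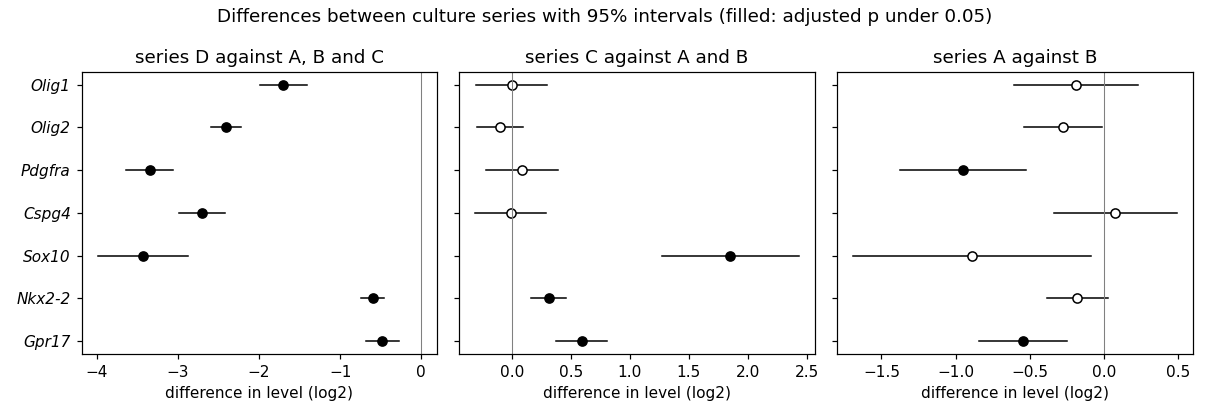
Difference in level (log2, horizontal axis) between culture series for each progenitor gene, as the limma estimate with its 95% interval, filled where the adjusted p was under 0.05. All 7 genes are lower in D, Sox10, Nkx2-2 and Gpr17 are higher in C than in A and B, and Pdgfra and Gpr17 are lower in A than in B.

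The rest of the lineage was read from lists of genes with known roles. The lists were drawn up with earlier results of these data known, so their counts describe these arrays and are no separate support. Of 17 other genes that are high in progenitors, 12 were lower in D and 2 were higher, with a median difference of -0.79 where the median over all probes was 0.03. Over all probes 24.2% were lower and 28.9% higher in D, and the counts of each list below stand beside these shares. Among those lower were Matn4, an extracellular matrix protein, the sialidase Neu4 and the endothelin receptor Ednrb (-1.62 ± 0.08). Neu4 was well above background on 40 of 40 arrays outside D and on 0 of 15 in D. Its measured difference was -3.99 ± 0.17 (limma adjusted p 8.09e-22). With its D levels raised to the lowest level of any probe well above background on the array, it was 7.80-fold lower. The size of the fold depended on the processing. Matn4 was well above background on 4 of the 15 D arrays and on 40 of 40 others, and its difference was -4.49 ± 0.27, or -1.69 under normexp with quantile normalization, where Neu4 was at -1.05. Cacng4 (+0.71 ± 0.15) and Cacng5 (+0.68 ± 0.16), subunits that accompany glutamate receptors, were the 2 higher in D, and Cacng5 was well above background on 13 of 15 arrays in D and on 12 of 40 outside it.

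Lineage transcription factors and their inhibitors gave 12 lower and 2 higher of 17 (median -0.48). Sox8, a close relative of Sox10, differed by -2.84 ± 0.15, and Myrf, the master regulator of myelin genes, by -2.30 ± 0.17. Nkx6-2 was well above background on 36 of 40 arrays outside D and on 0 in D. Its measured difference was -4.08 ± 0.26 (limma adjusted p 2.23e-16). With its D levels raised as for Neu4 it was 11.3-fold lower, while normexp with quantile normalization gave a difference of -1.41. Of 22 growth factors and receptors, 8 were lower and 5 higher (median -0.07). Bmp4, a signal that holds back oligodendrocytes, differed by -3.23 ± 0.26, the receptor Notch1 by -1.43 ± 0.08, and Gli1, a target of hedgehog signalling, by +1.58 ± 0.16 (+0.56 under normexp with quantile). Pdgfa, the ligand of the Pdgfra receptor, was lower in D by a small amount (-0.24 ± 0.06, adjusted p 0.00134).

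Genes of newly formed and differentiating oligodendrocytes followed, with 14 lower and 2 higher of 19 (median -0.82). The tight junction gene Cldn11 (-4.30 ± 0.23), Bcas1, a marker of cells that have just begun to make myelin (-4.16 ± 0.17), and Lims2 were lower. Lims2 was well above background on 6 of the 15 D arrays, with a difference of -4.64 ± 0.30, or -2.23 under normexp with quantile normalization. The myelin genes Mbp and Mag were also lower, with differences of -3.96 ± 0.26 and -1.66 ± 0.13. The mean level of Mag was 0.96 in D, close to 1.04 in A, against 2.15 in B and 4.54 in C. In contrast, Mog (+0.13 ± 0.11, adjusted p 0.329) and Mobp (-0.15 ± 0.09, 0.169) did not pass. Between C and the mean of A and B, 11 of the 19 were higher and 3 lower in C, among them Mbp (+3.70 ± 0.27), Cldn11 (+3.69 ± 0.24) and Mag (+2.90 ± 0.14). Between A and B, 9 were lower and 2 higher in A, with Mbp at -2.59 ± 0.37 and Cldn11 at -2.52 ± 0.33. In the same comparisons Olig1, Olig2 and Cspg4 did not pass.

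Markers of other cells that such a culture can hold also differed in D. Of 12 genes of fibroblasts, mural and endothelial cells, 9 were higher and 0 lower, led by the collagens Col3a1 (+5.72 ± 0.20), Col1a1 (+4.82 ± 0.20) and Col1a2 (+4.35 ± 0.14). Their mean level per array ran from 2.17 to 2.60 in D and from 0.07 to 1.34 in the others, without overlap. The list's mean was 0.59 in A, 0.30 in B, 1.16 in C and 2.36 in D. The same collagens were also higher in C than in A and B (Col3a1 +2.77 ± 0.21, Col1a1 +2.70 ± 0.21, Col1a2 +2.50 ± 0.15). All 8 genes of dividing cells were lower, for example Ccna2 (-2.27 ± 0.13), Cdk1 (-2.26 ± 0.14) and Mki67 (-2.08 ± 0.12), and their mean level ran from 2.27 to 3.54 in D and from 3.86 to 5.46 elsewhere. Of 12 neuronal genes, 7 were higher and 0 lower (Gad1 by +1.29 ± 0.09, Gad2 by +1.13 ± 0.12, Snap25 by +0.69 ± 0.06), with mean levels of 5.53 to 6.05 in D and 5.02 to 6.18 elsewhere. Of 13 astrocyte genes, 7 were lower and 3 higher (Gfap by +2.19 ± 0.16, Aldh1l1 by -1.51 ± 0.12, Fgfr3 by -0.93 ± 0.28). Their mean levels ran from 5.38 to 6.50 in D and from 5.21 to 7.39 elsewhere. Of 11 microglial genes, 7 were higher and 2 lower (Aif1 by +1.48 ± 0.29, Cx3cr1 by -1.16 ± 0.18, Itgam by -0.89 ± 0.20). Their mean levels ran from -1.18 to 0.58 in D and from -1.96 to 0.53 elsewhere. The list's mean was -0.45 in D and -0.39 in A, against -1.53 in B and -1.63 in C. Aif1 was well above background on 17 of the 40 arrays outside D, was higher on average in A (-0.81) than in D (-1.19), and differed by +0.36 under normexp with quantile. Neither the part of these cells in the difference of the progenitor genes nor that of the share of spots above background (medians of 71.7%, 72.5%, 72.1% and 75.3% in A, B, C and D) was tested.

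**Figure D3:**
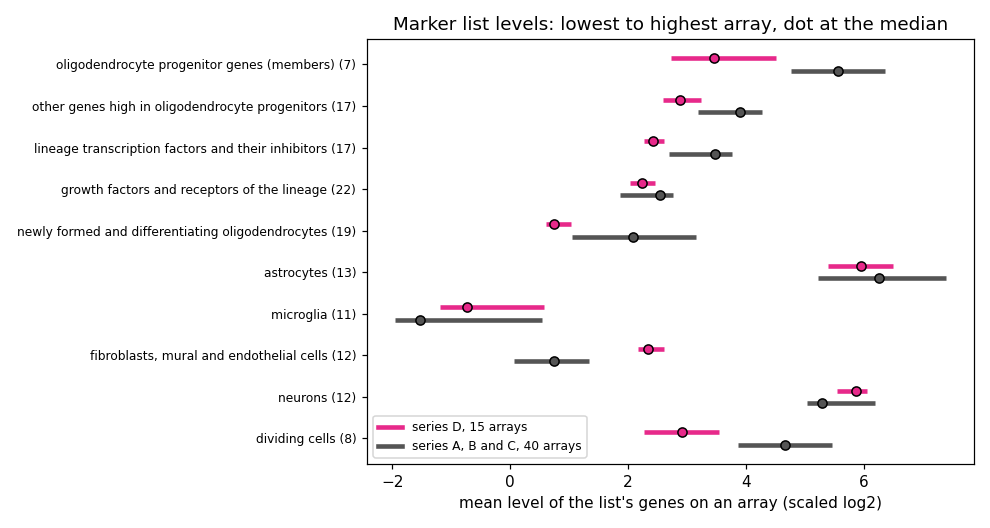
Mean level of the genes of each list on an array (horizontal axis, scaled log2 signal), from the lowest to the highest array with a dot at the median, in series D (15 arrays) and in series A, B and C (40 arrays). Progenitor genes, lineage transcription factors, differentiating oligodendrocytes and dividing cells lie lower in D without overlap, and genes of fibroblasts, mural and endothelial cells lie higher without overlap.

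The members also moved together from array to array. Over the 55 arrays, the correlation between members was highest for Olig2 and Pdgfra (r = 0.977) and lowest for Olig1 and Gpr17 (0.475). After the mean of each series was taken out, the first of these was 0.760 and the second 0.155, and the highest was Pdgfra with Sox10 (0.778). These points share slides and the series difference itself, so the values describe the arrays only. Against the mean standardised level of the members, 51 of the 13881 other genes had r over 0.9. The 10 highest were Sox8 (0.969), Bcas1 (0.959), Abtb2 (0.958), Cdk2ap1 (0.955), Sapcd1 (0.954), Rtkn (0.953), Gltp (0.953), Cfap52 (0.946), Polr2f (0.944) and Tnk2 (0.943). Within series their r fell to between 0.544 (Abtb2) and 0.713 (Sox8). The 3 most opposed were Eeig2 (-0.963), Actn3 (-0.938) and Cmtm3 (-0.925).

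With the series in the fit, levels hardly changed with time after the session. At 2, 8 and 24 h, 0 of 7 members differed from 0 h when sham, 1 Hz and iTBS were averaged (0 at an unadjusted p under 0.05 at each of these times), while 0%, 2.37% and 14% of all probes did. At 48 h, 1 of 7 passed, Nkx2-2, which was lower by a small amount (-0.26 ± 0.10, limma adjusted p 0.0432), against 27% of probes that differed and 13.4% that were lower. This call was lost when any of 14 arrays was left out, with adjusted p-values up to 0.112. Over all times jointly 0 of 7 members passed (limma, 0 unadjusted), and 27% of probes did. Astrocyte genes gave 9 higher of 13 and 0 lower at 48 h (median +0.70), against 13.6% of all probes that were higher. Without series D the count at 48 h was 2, against 15.9% of all probes that differed. Both were higher, Cspg4 (+0.68 ± 0.16, limma adjusted p 0.00481) and Sox10 (+0.97 ± 0.32, 0.0386), and Nkx2-2 did not pass (-0.13 ± 0.12, 0.503).

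Averaging hid different courses in the 4 series. The change with time differed between series for 6 of 7 members (limma, adjusted p from 5.32e-06 for Sox10 to 0.0455 for Olig2), with Olig1 at 0.0860, and for 39.4% of all probes. Without sham at 8 h replicate 3 it was 4 of 7, as Olig2 (0.0562) and Gpr17 (0.0510) no longer passed. Over all arrays left out in turn the count ran from 4 to 7. In series B, 4 of 7 members were higher at 48 h than at 0 h, against 33% of probes that differed and 14.9% that were higher. In A it was 1 of 7 (19.6% and 11.4%), in C 0 of 7 (5.63% differed, 1 member, Nkx2-2, at an unadjusted p under 0.05 in limma, adjusted p 0.0534), and in D 3 of 7 were lower (21.7% and 10.6%). Within each series later times lay on later slides, so the time of collection and the slide cannot be told apart there.

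Sox10 diverged furthest. In A its sham and stimulated arrays were at 3.63 and 3.77 at 0 h and at 4.10, 5.64 and 5.85 at 48 h, and the untreated arrays, which this fit left out, were at 3.92 and 4.16 at 0 h. In B they were at 4.35, 4.41 and 4.44 at 0 h and at 5.94 and 6.84 at 48 h. In D they were at 2.01, 2.22 and 2.34 at 0 h and at 0.07, 0.43 and 0.55 at 48 h. In B and D, which held no untreated cultures, early and late arrays did not overlap. In A the lowest array at 48 h was below the higher untreated one. The changes were +1.52 ± 0.43 in A (limma adjusted p 0.0117), +2.03 ± 0.43 in B (4.64e-04), -0.16 ± 0.38 in C (0.898) and -1.84 ± 0.38 in D (7.08e-04). The call in A was lost without any one of its sham and iTBS arrays at 0 h or of its 1 Hz and iTBS arrays at 48 h (changes of 1.14 to 1.52, adjusted p 0.0685 to 0.0757), and the call in B without iTBS at 48 h replicate 2 (+1.56, 0.0507). With the slide as a block the calls in B (+1.75, limma adjusted p 0.131) and D (-0.06, 0.999) were also lost.

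The other members that changed did so in B or D. In B, Olig1 rose from 8.22, 8.35 and 8.48 to 9.68 and 10.38 (+1.75 ± 0.39, limma adjusted p 7.83e-04). Pdgfra rose from 8.13, 8.18 and 8.46 to 8.94 and 9.39 (+0.95 ± 0.31, 0.0163), and Cspg4 from 6.06, 6.16 and 6.25 to 7.02 and 7.16 (+0.95 ± 0.32, 0.0208). The count of 4 in B was 2 without sham at 0 h replicate 1 (Pdgfra +0.84, adjusted p 0.0583; Cspg4 +0.88, 0.0592) and 1 without iTBS at 48 h replicate 2. Without 1 Hz at 48 h replicate 2 it was 3 (Cspg4 +0.83, 0.130). The calls of Pdgfra and Cspg4 in B were also lost under quantile (+0.56, adjusted p 0.144, and +0.70, 0.0949) and under normexp with quantile (+0.57, 0.126, and +0.72, 0.0708). In D, Pdgfra fell from 4.81, 4.84 and 5.06 to 3.87, 3.92 and 4.31 (-0.87 ± 0.27, 0.0211), a call that was lost without 1 Hz at 0 h replicate 3 (-0.70, adjusted p 0.109), 1 Hz at 48 h replicate 4 (-0.89, 0.0505) or iTBS at 48 h replicate 4 (-0.74, 0.0911). Nkx2-2 fell in D from -0.16, -0.13 and 0.28 to -0.79, -0.55 and -0.49 (-0.60 ± 0.13, 8.00e-04). With the slide as a block that change was -0.11 (limma adjusted p 0.999). Of the 8 genes of dividing cells, 7 were lower at 48 h in D, 4 in C, 0 in B and 0 in A, where 3 were higher. Cdk1 was higher in B (+0.56 ± 0.18, limma adjusted p 0.0160). Of all probes, 10.6%, 2.05%, 18.1% and 8.23% were lower in D, C, B and A. The shares that were higher in A and B were 11.4% and 14.9%.

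**Figure D4:**
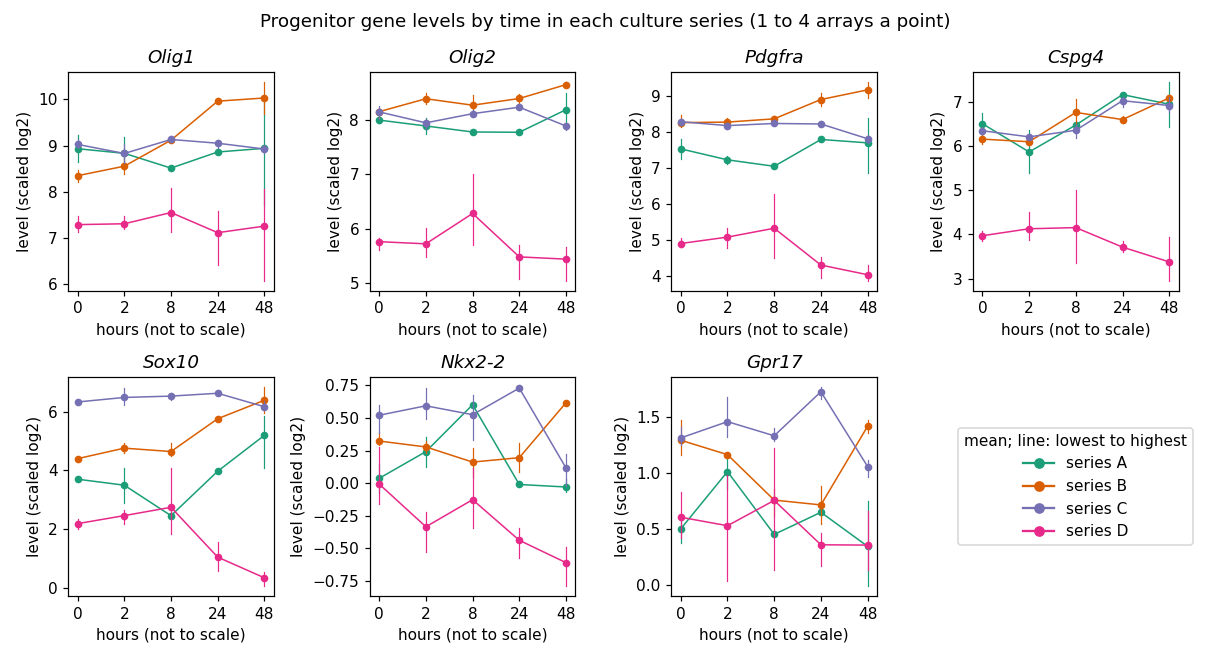
Mean level of each progenitor gene (vertical axis, scaled log2 signal) at each time of collection (horizontal axis, hours after stimulation, not to scale) in each culture series, without untreated cultures, with a line from the lowest to the highest array. Sox10 is higher at 48 h than at 0 h in A and B and lower in D, and Olig1, Pdgfra and Cspg4 are higher at 48 h in B.

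Stimulation was compared with sham at each time to ask whether rTMS altered these genes, and no member passed. Over 7 genes, 5 times and 2 protocols, 0 of 70 comparisons passed (limma, smallest adjusted p 1.00), and 0 reached an unadjusted p under 0.05 (smallest 0.296). The background was as bare, with 0% of probes called at 7 of the 10 comparisons, 0.0056% at 2 h after 1 Hz and at 8 h after iTBS, and 0.0028% at 8 h after 1 Hz. Differences ran from -0.95 to 1.08 with SEs of 0.30 to 1.92, which hold the spread between series. For Sox10 at 48 h after iTBS, for example, the 95% interval ran from -2.35 to 4.50, and with series as a replicate block the same difference was +0.85 (unadjusted p 0.216). With series as a replicate block 0 of the 70 comparisons passed and 4 reached an unadjusted p under 0.05, and with series at each time as the block 0 passed and 10 did. The smallest of these were Olig1 at 48 h after 1 Hz (-0.93, unadjusted p 0.00444, limma adjusted p 0.160) and Olig2 at 8 h after iTBS (-0.57, 0.00595, adjusted p 1.00). For both blocked fits, the share of all probes at an unadjusted p under 0.05 was not counted. Olig2 in sham and iTBS at 8 h was at 8.46 and 8.19 (B), 8.19 and 8.07 (C), and 7.01 and 5.70 (D). The sham array of D was replicate 3, which stood apart from its series.

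The groups did not hold the same series. For Sox10 at 48 h, sham arrays were at 4.10 (series A), 6.36 (C) and 0.43 (D). The iTBS arrays were at 5.85 (A), 6.84 (B), 6.08 (C) and 0.07 (D), and the 1 Hz arrays at 5.64 (A), 5.94 (B), 6.05 (C) and 0.55 (D). Sham lacked an array of series B, and all 3 groups overlapped. The differences from sham were +1.08 ± 1.70 for iTBS and +0.91 ± 1.70 for 1 Hz (limma adjusted p 1.00 for both).

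At 8 h the sham group held the array that stood apart. Sox10 was at 4.52 (B), 6.54 (C) and 4.07 (D) in sham, at 4.48 (B), 6.40 (C) and 1.85 (D) after iTBS, and at 2.46 (A), 4.93 (B), 6.64 (C) and 2.32 (D) after 1 Hz. The B and C arrays lay close together and the D arrays did not. The differences from sham for Sox10 and Pdgfra were -0.95 and -0.46 after 1 Hz and -0.80 and -0.64 after iTBS. Without sham at 8 h replicate 3 they were -1.44 and -1.15, and -1.28 and -1.33 (limma adjusted p 1.00 for all), since sham then held B and C only. Pdgfra in sham and iTBS was at 8.45 and 8.32 (B), 8.25 and 8.23 (C), and 6.28 and 4.50 (D).

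Averaged over the 5 times, differences of the members ran from -0.43 (Olig1) to 0.09 (Nkx2-2) after 1 Hz and from -0.03 (Sox10) to 0.09 (Nkx2-2) after iTBS, and 0 of 7 passed for either (limma, 0 unadjusted, 0% of probes called). For Olig2 the 95% interval was -1.15 to 0.63 after 1 Hz and -0.85 to 0.86 after iTBS. The protocols compared with each other gave 0 of 7 (0 unadjusted, 0% of probes), with Olig1 at +0.48 ± 0.34 for iTBS over 1 Hz. All 10 comparisons tested jointly gave 0 of 7 (0 unadjusted, 0.0028% of probes). Among the other genes of the lineage, 0 of 17 progenitor genes, 0 of 17 transcription factors, 0 of 22 growth factors and receptors and 0 of 19 genes of differentiating oligodendrocytes passed in either mean over the times.

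**Figure D5:**
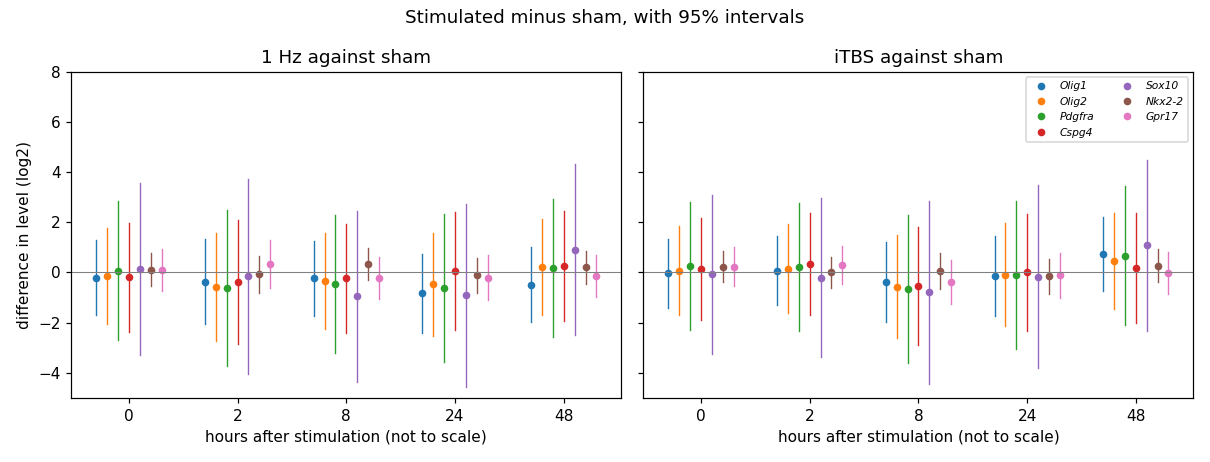
Stimulated minus sham level (log2, vertical axis) of each progenitor gene at each time of collection (horizontal axis, hours, not to scale) for 1 Hz and iTBS, with 95% intervals from limma. All 70 intervals include 0, and those of Sox10 and Pdgfra are wide.

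Untreated cultures were compared with sham at 0 h as a check on the handling of the plates. Olig2 was at 7.72, 7.84, 8.07 and 8.20 in untreated cultures, which came from series A and C only, and between 5.61 and 8.21 in sham (median 8.04), which held all 4 series. The ranges overlapped, and the only low sham array was that of series D. Olig2 differed by +0.48 ± 0.88 and Sox10 by +1.07 ± 1.57, and 0 of 7 members passed (limma, 0 unadjusted, adjusted p 1.00) with 0.0028% of probes called.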

How the data were processed

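Total RNA of each culture had been labelled with Cy3 and hybridized to 1-colour Agilent rat arrays. The authors extracted the spots with Agilent Feature Extraction 12.0.3.1 (per the file headers, build rn4), and the deposited intensity is a processed, background-corrected signal. The deposited score in the series matrix is the authors' z-score within each array, which correlated with the levels used here by r of at least 0.997 for each member. No column was left unassigned (0). Spots of 1 probe were averaged on the log2 scale, without outlier spots. Probes well above background on fewer than 3 arrays (9484) or without a value on some array (420) were left out, and 35694 of 45598 were tested. Symbols were taken from RefSeq (GRCr8) by accession.

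Fits used limma 3.58.1 in R 4.3.3 with Benjamini-Hochberg adjustment over all probes and a threshold of 0.05. The series and time comparisons had group and series in the fit, the stimulation comparisons the groups alone, and the test of courses the series at each time with the arm, without untreated cultures. With group means taken out, arrays of the same series in different groups had a mean r of 0.398 (lowest -0.02) and arrays of different series one of -0.13, so series was also tried as a replicate block. Replicate numbers of the titles do not follow the series. The members and lists were chosen with earlier results of these data known. Named list genes were among the 3 largest changes that passed and were well above background on most of the 55 arrays. Others named beside them (the calcium channel subunits, Pdgfa, Mbp, Mag, Mog and Mobp) were chosen after their values were seen. The fits were tested on simulated data whose noise had the spread within series, with a series difference in a small set of probes only. The stimulation fits were thus not tested under the spread between series seen here. Alternatives were another scaling (75th percentile, quantile, normexp with quantile on the median signal), no filter on dim probes, all 56 arrays, the slide as a block, each array left out and, chosen after seeing the data, series D left out. The number of arrays limits the precision.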

Additional observations from a re-analysis of the deposited data

Results flagged for a closer look

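Among groups of 4 arrays, 1 array stood far from the other 3 in 9 of 56 combinations of group and member. The threshold was a gap over 0.829 of the group's range. The groups mix series, and the members share arrays and move together, so no chance rate applies to this count. In each of the flagged combinations the far array was that of series D, and it was the lowest. The flags thus restate the difference of series D given above. The gap as a share of the group's range was 0.926 for Olig2 and 0.881 for Cspg4 in sham at 0 h, 0.839 for Olig2 in sham at 2 h, 0.965 for Cspg4 in 1 Hz at 8 h and 0.924 for Sox10 in 1 Hz at 48 h. In the iTBS groups it was 0.869 for Olig2 at 0 h, 0.834 for Cspg4 at 2 h, and 0.964 for Cspg4 and 0.854 for Sox10 at 48 h.

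The change with time differed between culture series by a limma test of the difference itself for 6 members. The adjusted p was 5.32e-06 for Sox10, 0.00130 for Nkx2-2, 0.00267 for Pdgfra, 0.0131 for Cspg4, 0.0378 for Gpr17 and 0.0455 for Olig2. Time and slide cannot be told apart within a series, and with the slide as a block 2 members passed.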

How the results depend on the processing

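All 7 members were lower in series D under every alternative run, including each of the 55 arrays left out, and 0 of 7 passed in each comparison of a stimulated or untreated group, save the fit with all 56 arrays, which gave 2 for 1 Hz at 2 h. With series as a replicate block, and with series at each time point as a replicate block, 0 of 7 passed in every comparison with sham, and the smallest unadjusted p was 0.0215 and 0.00444 (under the second, 3 members were under 0.05 for 1 Hz at 48 h and 3 for iTBS at 8 h). The sham group at 8 h held replicate 3, which stood apart from its series, and neither blocked fit left it out. The 56-array fit gave 1 for A against B, 0 for 48 h against 0 h, 0 for 48 h against 0 h in A, in B and in D, and 0 for the difference of courses between series. With the slide as a block, which links A, B and C only through the arrays of D, 6 passed for C against A and B (not Olig1), 0 for A against B (where Gpr17 reversed to 0.0497), 1 at 24 h, 2 at 48 h and 2 over all times, 0 at 48 h in B and in D (where Pdgfra reversed to 0.56), and 2 for the difference of courses. Nkx2-2 at 48 h was the only call of that comparison, and it fell to 0 under the 75th percentile, quantile, normexp with quantile, no filter on dim probes and no replicate block. Normexp with quantile gave 1 at 48 h in C. Without series D the counts were 1 at 24 h, 2 at 48 h, 1 over all times and 1 at 48 h in C. Of all probes, 2.92%, 15.9% and 9.93% were then called at 24 h, at 48 h and over all times. Shares over all probes were not counted for the slide block or the fit with all 56 arrays. With single arrays left out, the counts ran from 2 to 4 for A against B, 0 to 1 for 48 h, 0 to 1 for all times, 0 to 1 for 48 h in A, 1 to 5 in B, 0 to 1 in C and 2 to 3 in D, and 4 to 7 for the difference of courses, which could not be fitted without either of the lone arrays of A at 8 and 24 h. Causes were not tested. Averaging the probes of a gene changed nothing, as each member had 1 probe. Scaling by the 75th percentile moved the share of higher calls between A and B from 54.95% to 34.9%.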
